A study of Mus musculus with 16 samples.

Results

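The S100, annexin and Ahnak group comprised 10 genes of the 23234 named genes in the table: S100a4, S100a6, S100a10, S100a11, Anxa2, Anxa6, Ahnak, Capg, Vim and Lgals1. They were picked by symbol because S100a6, S100a10 and Ahnak were high in the mature memory gate, Fraction 7, so every level in that gate is given as a description without a test. All 16 libraries came from C57BL/6 donor B cells of 1 genotype, Bcl6-YFP(KI/+) B1-8hi(KI/+), in which a fluorescent reporter marks the germinal centre factor Bcl6 and the receptor binds the hapten NP. The donor cells had been transferred into wild-type CD45.1+ mice that were immunised intraperitoneally with NP-CGG in alum on day 0. On day 10 spleen cells from 9 recipients were combined, and the cells sorted from them carried CD45.2 and IgG1, bound NP and lacked CD138. No group lacked the transfer or the immunisation, the age of the mice was not given, and whether the libraries within a gate were separate sorts or splits of 1 sort is not given. The p-values therefore speak only to how far these libraries differ, and that spread could be purely technical.

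A first set of gates were CD38-negative, CD86-high and CXCR4-low, the surface of the light zone, where germinal centre B cells receive T cell help. The LZ gate (n = 3) used no reporter, Fraction 2 (n = 2, labelled recycling-prone) was Bcl6-YFP-high and CD69-high, and Fraction 3 (n = 3, labelled as under selection) was Bcl6-YFP-high and CD69-low. The remaining gates were CD38-positive and GL7-negative. Of these, Fraction 5 (n = 3, labelled pro-memory) was Bcl6-YFP-high and Efnb1-high, Fraction 6 (n = 2, labelled pre-memory) was Bcl6-YFP-low and Efnb1-high, and Fraction 7 (n = 3, labelled mature memory) was Bcl6-YFP-low and Efnb1-low. All were sorted on the same day, so an order of gates is an order of phenotype and not of time.

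S100 proteins are small calcium-binding proteins of the EF-hand type that act by docking onto partner proteins, while annexins bind acidic membrane lipids when calcium is present. S100a10, also called p11, is an S100 protein that has lost calcium binding and pairs with annexin A2 at the inner face of the plasma membrane. Ahnak is a very large scaffold that binds this pair, and the complex has been placed in membrane repair, channel trafficking and the link from membrane to actin. Capg caps actin filament ends, vimentin (Vim) builds intermediate filaments, and galectin-1 (Lgals1) binds galactose-bearing sugars on glycoproteins. In lymphocytes several of these genes are known as transcripts of memory and effector cells.

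Levels are FPKM, fragment counts scaled to transcript length and to the library's mapped fragments. The scaling to length allows only a rough comparison between genes. FPKM summed to between 416741 and 492578 per library, between 10133 and 10552 genes reached 1 FPKM, and the depth of a library relative to LZ library 1, estimated from the step size among low FPKM, ranged from 0.923 to 1.21. The marker lists followed the labels: 7 germinal centre genes summed to between 712 and 928 FPKM in LZ and Fractions 2, 3 and 5, to between 311 and 317 in Fraction 6 and to between 73.4 and 95.6 in Fraction 7. The 10 memory genes summed to between 54.9 and 89.0 FPKM in LZ and Fractions 2 and 3, to between 156 and 166 in Fraction 5, to between 449 and 490 in Fraction 6 and to between 674 and 814 in Fraction 7. Of 9 T cell genes, 6 (Cd3e, Cd3d, Cd3g, Cd4, Cd8a and Bcl11b) were under 1 FPKM in all 16 libraries. The others were Lat (up to 9.80 FPKM), Cd8b1 (up to 1.61) and Thy1 (up to 1.33). Of the macrophage list, Csf1r, C1qa, C1qb and Cd14 were too, but Emr1, which encodes F4/80, went from at most 0.254 FPKM in LZ and Fractions 2, 3 and 5 to 1.06 and 1.41 in Fraction 6 and 1.23, 2.46 and 1.17 in Fraction 7. Neutrophil transcripts were not: the granule gene Ngp reached 1 FPKM or more in 4 libraries (LZ library 2, Fraction 3 library 3, Fraction 5 library 2 and Fraction 7 library 3), with 5.77 FPKM as its highest value. An exact 0 in such a table can be a failed estimate, since Actr3, a housekeeping actin-related gene with up to 651 FPKM, was listed at 0 in 4 libraries. A value of 0 is therefore called listed at 0.

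The upstream sequences of 4 members are shown because their transcripts took different courses across the gates: Ahnak and S100a6 were under 4 FPKM before Fraction 7, S100a11 was abundant in every gate, and Anxa2 was lower in Fractions 6 and 7. Each is the 250 bases before the start of transcription on the plus strand, from RefSeq on build GRCm38.p6, and 7 of the 10 members had such a window. Capitals mark matches to AP-1 (TGANTCA), Sp (GGGCGG), Runx (TGTGGTT) or a TATA box (TATAAA), read on both strands.
S100a6: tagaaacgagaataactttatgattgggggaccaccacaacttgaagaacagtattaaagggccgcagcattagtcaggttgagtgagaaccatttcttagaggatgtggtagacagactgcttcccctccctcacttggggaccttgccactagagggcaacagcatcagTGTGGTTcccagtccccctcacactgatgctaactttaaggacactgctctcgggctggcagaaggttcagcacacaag
Ahnak: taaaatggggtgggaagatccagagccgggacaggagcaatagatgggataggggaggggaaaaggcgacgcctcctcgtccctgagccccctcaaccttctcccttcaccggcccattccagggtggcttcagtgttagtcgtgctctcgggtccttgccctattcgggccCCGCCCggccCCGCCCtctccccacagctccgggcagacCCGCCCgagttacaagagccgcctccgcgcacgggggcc
S100a11: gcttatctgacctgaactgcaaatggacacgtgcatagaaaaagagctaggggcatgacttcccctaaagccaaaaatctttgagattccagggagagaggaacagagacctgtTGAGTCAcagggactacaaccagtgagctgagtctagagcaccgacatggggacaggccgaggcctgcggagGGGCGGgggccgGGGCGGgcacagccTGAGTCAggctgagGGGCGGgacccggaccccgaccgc
Anxa2: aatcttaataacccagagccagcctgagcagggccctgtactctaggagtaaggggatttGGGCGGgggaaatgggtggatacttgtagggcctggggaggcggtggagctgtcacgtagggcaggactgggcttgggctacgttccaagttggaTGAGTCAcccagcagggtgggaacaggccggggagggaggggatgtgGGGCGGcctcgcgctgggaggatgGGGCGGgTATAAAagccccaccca
The windows lie at chr3:90612644-90612893 for S100a6, chr19:8989034-8989283 for Ahnak, chr3:93520246-93520495 for S100a11 and chr9:69453433-69453682 for Anxa2.

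No motif of those searched was present in all 7 member windows. S100a11 held the AP-1 letters at 136 and 38 bases before the start and Anxa2 held them at 95 bases, whereas S100a6 and Ahnak had no match, and 6.75% of all 32851 windows of that length held at least 1. The Sp letters, with 3 matches each in Ahnak, S100a11 and Anxa2, occurred in 32.7% of windows, and in Ahnak they lie on the minus strand as CCGCCC. S100a6 held the Runx letters at 79 bases before the start (4.4% of windows), and TATAAA lay at 17 bases in Anxa2, 31 in S100a4 and 32 in Vim (12.4% of windows). No member window held the KLF letters CCACACCC (3.2% of windows) or the Ets letters CCGGAAGT (2.88%), and that of Capg held none of the 6 motifs. No binding was measured here, and these matches are descriptions of the letters.

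**Figure D1:**
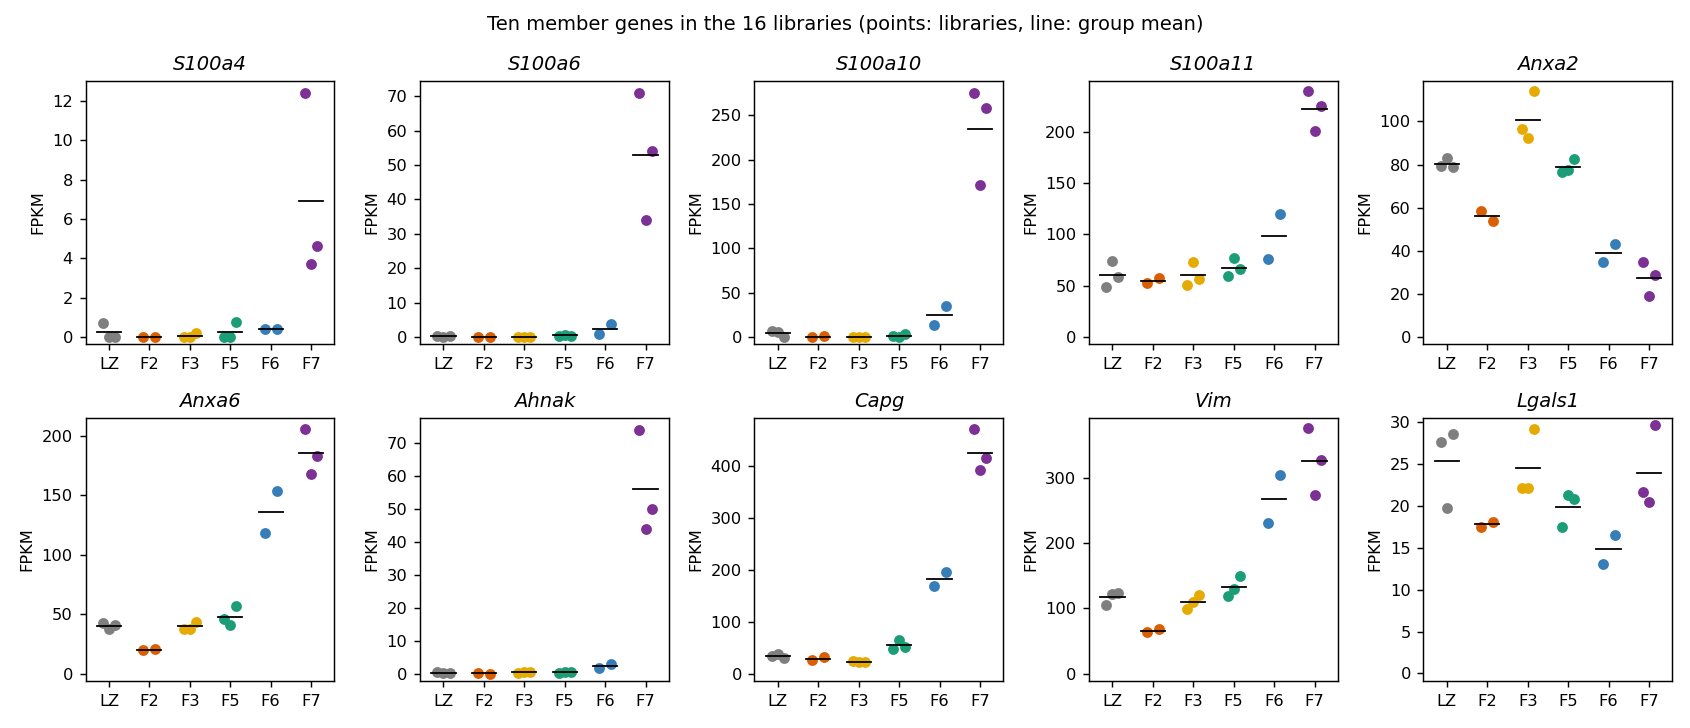
FPKM of the 10 members in each of the 16 libraries, by sorted gate (F2 is Fraction 2, and so on), with a line at the group mean and a linear axis from 0 that differs between genes. S100a4, S100a6, S100a10 and Ahnak stand near 0 before Fraction 6 and are highest in Fraction 7, Capg, Vim and Anxa6 climb from Fraction 5 to Fraction 7, Anxa2 runs the other way and Lgals1 stays between 13.1 and 29.7 FPKM.

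S100a6 and S100a10 were highest in Fraction 7 and listed at 0 in Fraction 3. S100a6 (calcyclin) was listed at 0 in both Fraction 2 and all 3 Fraction 3 libraries, stood at 0.407, 0 and 0.404 FPKM in LZ and at 0.374, 0.573 and 0.287 in Fraction 5. Its level was 0.734 and 3.81 FPKM in Fraction 6 and 70.9, 33.9 and 54.1 in Fraction 7. Fraction 7 lay above every other library and Fraction 6 above every Fraction 5 library; LZ overlapped with both its neighbours in the order of means, Fraction 3 and Fraction 5. The lowest of these values may rest on few fragments: the Fraction 5 values equal 3, 5 and 2 steps, and that of Fraction 6 library 1 equals 6. A step, 0.136 FPKM after depth scaling, is the largest unit that fits the S100a6 values under 1 FPKM (whole to within 0.05 steps). It could hold more than 1 fragment.

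S100a10 was also highest in Fraction 7, with Fraction 6 next. It was listed at 0 in all 3 Fraction 3 libraries, stood at 0 and 0.741 FPKM in Fraction 2, at 1.30, 0.397 and 2.82 in Fraction 5 and at 6.42, 6.01 and 0.311 in LZ. In Fraction 6 it reached 13.4 and 35.1 FPKM, and in Fraction 7 it reached 275, 171 and 258. Neither Fraction 6 nor Fraction 7 overlapped with the gate below it, and the LZ libraries spanned the whole range of Fraction 5.

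S100a4, which binds non-muscle myosin, was the weakest member. It was listed at 0 in 8 of the 16 libraries and did not exceed 0.75 FPKM outside Fraction 7, where it stood at 12.4, 3.70 and 4.65. Both Fraction 6 values (0.426 and 0.391 FPKM) equal 2 of its steps, found as for S100a6. S100a11, a partner of annexin A1, was by contrast abundant throughout: 49.0, 74.0 and 58.3 FPKM in LZ, 52.3 and 57.2 in Fraction 2, 50.4, 73.3 and 56.9 in Fraction 3 and 59.8, 77.2 and 65.9 in Fraction 5. Its level was 76.1 and 120 FPKM in Fraction 6 and 240, 201 and 225 in Fraction 7. Only Fraction 7 stood clear of the gate below it in the order for S100a11, and the other 5 gates each overlapped with the next.

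These 4 genes lie among 15 S100 genes on mouse chromosome 3, and high levels were not a feature of the whole cluster. In RefSeq order S100a4 is gene 7, S100a6 gene 9, S100a11 gene 14 and S100a10 gene 15. S100a5, gene 8 between S100a4 and S100a6, was listed at 0 in every library outside Fraction 7 and did not exceed 0.594 FPKM there. The same held for S100a3, S100a2 and S100a7a, genes 5, 6 and 10, with at most 0.369, 1.09 and 0.815 FPKM in Fraction 7. S100a13, gene 2, had group means between 17.0 and 20.9 FPKM in all 6 gates. S100a8 and S100a9, genes 11 and 12 and neutrophil transcripts, were uneven within gates, with 0.719, 1.70 and 15.2 FPKM of S100a8 in the Fraction 7 libraries.

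The annexins of the group took opposite courses. Anxa2, the partner of S100a10, stood at 79.4, 82.9 and 78.8 FPKM in LZ, 58.6 and 53.9 in Fraction 2, 96.4, 92.1 and 114 in Fraction 3 and 76.5, 77.5 and 82.7 in Fraction 5. It stood at 34.6 and 43.0 FPKM in Fraction 6 and at 34.8, 18.8 and 28.5 in Fraction 7, the lowest of the gates. Fractions 6 and 7 overlapped for Anxa2, as did Fraction 5 and LZ, and the other neighbours in the order did not. Anxa6, an annexin with a duplicated core, was lowest in Fraction 2 (19.6 and 20.6 FPKM) and stood at 42.3, 37.1 and 40.5 in LZ, 37.6, 37.7 and 43.8 in Fraction 3 and 45.6, 40.6 and 56.7 in Fraction 5. In Fraction 6 it reached 118 and 154 FPKM and in Fraction 7 it reached 206, 168 and 183. LZ, Fraction 3 and Fraction 5 overlapped for Anxa6, and each other step in its order was free of overlap.

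Ahnak was barely detected before the Bcl6-low gates. Its values were 0.391, 0.241 and 0.268 FPKM in LZ, 0.0494 and 0.0222 in Fraction 2, 0.0637, 0.548 and 0.402 in Fraction 3 and 0.331, 0.539 and 0.569 in Fraction 5. They were 1.82 and 2.87 FPKM in Fraction 6 and 73.9, 44.0 and 49.8 in Fraction 7. LZ, Fraction 3 and Fraction 5 could not be ordered beyond their spread, while Fraction 2 lay below LZ, and Fractions 6 and 7 each lay above the gate before them. The homologue Ahnak2 was not analysed here.

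Capg had the highest FPKM of the members in Fraction 7. It stood at 34.7, 38.3 and 30.0 FPKM in LZ, 25.7 and 31.3 in Fraction 2, 24.3, 22.0 and 21.4 in Fraction 3 and 47.2, 64.5 and 51.5 in Fraction 5. Capg reached 169 and 195 FPKM in Fraction 6 and 470, 392 and 414 in Fraction 7, and Fraction 2 and LZ were its only overlapping neighbours. Vim stood at 105, 122 and 124 FPKM in LZ, 63.3 and 67.9 in Fraction 2, 98.5, 110 and 121 in Fraction 3 and 118, 130 and 149 in Fraction 5. Its levels of 230 and 304 FPKM in Fraction 6 overlapped with 376, 273 and 327 in Fraction 7, so these gates could not be ordered for Vim. LZ, Fraction 3 and Fraction 5 overlapped too, and Fraction 2 lay below every other library. Lgals1 was the flattest member, between 13.1 and 29.7 FPKM over all libraries: 27.6, 19.8 and 28.6 in LZ, 17.5 and 18.1 in Fraction 2, 22.2, 22.1 and 29.2 in Fraction 3, 17.5, 21.3 and 20.8 in Fraction 5, 13.1 and 16.5 in Fraction 6 and 21.7, 20.5 and 29.7 in Fraction 7. Fraction 6 lay lowest for Lgals1, and from Fraction 2 upward each gate overlapped with the next.

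In bulk libraries such as these, a smaller share of expressing cells and less RNA per cell cannot be told apart. The kit does not mark the strand, so reads of Mir3109 within Anxa2 and of the non-coding genes Gm19911 and Gm30368 that overlap Anxa6 and Lgals1 are not separated from those of the members. S100a11 and Lgals1 have pseudogenes (S100a11-ps and Lgals1-ps1) that could share reads with them.

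The comparisons that follow are between the other gates and can be tested, although the Fraction 7 libraries still enter the fit and the filter. Each is a limma fit on log2(FPKM + 1) over all 16 libraries and the 11266 genes that reached 1 FPKM in 2 or more libraries, with Benjamini-Hochberg adjusted p-values under 0.05 taken as passing. All 10 members passed this filter, but S100a4 and S100a6 did so only through the Fraction 7 libraries, in which they are high. Their changes are therefore given as values with no test, and members are counted over the other 8. Of those 8, Ahnak reached 1 FPKM only in Fractions 6 and 7, so its calls against Fraction 6 are no test either. The comparisons share Fractions 3, 5 and 6 with one another, and Fraction 6 is also the gate against which Fraction 7 was seen to be high.

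Within the light zone, Fraction 2 against Fraction 3 asks how CD69-high and CD69-low Bcl6-YFP-high cells differ. Anxa6, Anxa2 and Vim were lower in Fraction 2, and 3 of 8 members fell, beside 6.45% of all genes tested. In this limma fit 0 members were higher (1 at an unadjusted p under 0.05), beside 9.17% of all genes. Anxa6 was 20.1 ± 0.70 FPKM (SD, n = 2) in Fraction 2 and 39.7 ± 3.53 (n = 3) in Fraction 3, a log2 change of -0.95 ± 0.14 (SE), with a limma adjusted p of 0.00134. Anxa2 fell by 0.83 on the log2 scale (SE 0.18, limma adjusted p 0.00946) and Vim by 0.73 (SE 0.15, limma adjusted p 0.00614). Capg, at 28.5 ± 3.95 against 22.6 ± 1.51 FPKM, missed the threshold in the same limma fit (adjusted p 0.142), as did Lgals1 (adjusted p 0.136). The median log2 change of the 8 members was -0.39 (-0.24 with all 10), beside 0.04 over all genes tested. Without the libraries that held Ngp, 1 member passed, since Anxa2 then had a limma adjusted p of 0.0711 and Vim of 0.0548, with log2 changes of -0.74 and -0.66. Anxa2 also missed the threshold without Fraction 2 library 2 (limma adjusted p 0.0763), and Vim without Fraction 2 library 1 (0.0582).

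Between Fraction 5 and Fraction 3, both Bcl6-YFP-high, Capg was the only member to pass. It rose from 22.6 ± 1.51 to 54.4 ± 9.03 FPKM (SD, n = 3 each), 2.41-fold, with a log2 change of 1.22 ± 0.13 (SE) and a limma adjusted p of 1.93e-05. That is 1 of 8 members, beside 9.99% of all genes tested that were higher. In this limma fit 0 members were lower, adjusted or unadjusted, beside 19.5% of all genes. S100a10 was listed at 0 in each Fraction 3 library and was present in each Fraction 5 library, and it did not pass (limma adjusted p 0.136). It passed with a pseudocount of 0.1 in place of 1 (limma adjusted p 0.0135), which gives small values more weight. S100a6 had the same pattern, with values of 2 to 5 steps in Fraction 5. Anxa6 and Vim passed after quantile normalization (limma adjusted p 0.0153 and 0.0128), and S100a10 and Anxa2 when only these groups were fitted (0.0308 and 0.0264). The median log2 change of the 8 members was 0.21, as it was for all 10, beside -0.03 over all genes.

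Fraction 5 and Fraction 6 are alike in surface gates and differ in the Bcl6 reporter, and 6 of 8 members passed between them, beside 17.5% of all genes tested. S100a10, Capg, Anxa6, Ahnak and Vim rose and Anxa2 fell: 5 of 8 members were higher, beside 7.07% of all genes tested, and 1 was lower, beside 10.4%. S100a10 had the largest change among the members, 3.31 ± 0.64 on the log2 scale (SE, limma adjusted p 0.00266), with 13.4 and 35.1 FPKM against 0.397 to 2.82. Its call rests on Fraction 6 library 2, without which the limma adjusted p was 0.0519. Capg rose 3.35-fold, from 54.4 ± 9.03 (SD, n = 3) to 182 ± 18.8 FPKM (n = 2), with a limma adjusted p of 2.18e-06. Anxa6 rose 2.85-fold (log2 change 1.50 ± 0.14, limma adjusted p 7.24e-06) and Vim 2.02-fold (1.00 ± 0.15, limma adjusted p 0.000345). For Ahnak the ratio of means was 4.89, at levels under 3 FPKM, with a log2 change of 1.16 ± 0.21. Ahnak is among the 6 counted, but its call is no test because it reached 1 FPKM only in Fractions 6 and 7. Anxa2 was 38.8 ± 5.88 FPKM in Fraction 6 and 78.9 ± 3.34 in Fraction 5, a log2 change of -1.01 ± 0.18 (limma adjusted p 0.00143).

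S100a11, with a log2 change of 0.50 ± 0.21 (SE, limma adjusted p 0.116), and Lgals1, with -0.40 ± 0.19 (limma adjusted p 0.160), missed the threshold in that comparison. S100a11 passed without Fraction 6 library 1 (limma adjusted p 0.0326) and after quantile normalization (0.038). The untested differences were 1.04 for S100a6 and 0.22 for S100a4. Of the 10 members, 9 were higher in Fraction 6 library 2 than in library 1, as were 58.0% of all genes tested, and FPKM summed to 436809 in library 1 and 470846 in library 2. Library 1 was also the library with neutrophil precursor transcripts (Mpo 4.86 FPKM, Elane 4.40), and their part in this difference was not tested. Emr1 also rose from Fraction 5 to Fraction 6 (log2 change 0.90 ± 0.19, limma adjusted p 0.00392), and Lyz2 was at 5.70 FPKM in Fraction 6 library 1 and 1.08 in library 2. The 12 macrophage list genes summed to between 22.6 and 30.2 FPKM in Fraction 6 and between 20.9 and 27.1 in Fraction 5. Ly6c1 and Cd68 were the 2 most abundant genes in these sums, and the 5 tested genes of the list had a median log2 change of 0.899. The part of these transcripts in the members' changes was not tested. The median log2 change of the 8 counted members was 1.08 (1.02 with all 10), beside -0.00213 over all genes.

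**Figure D2:**
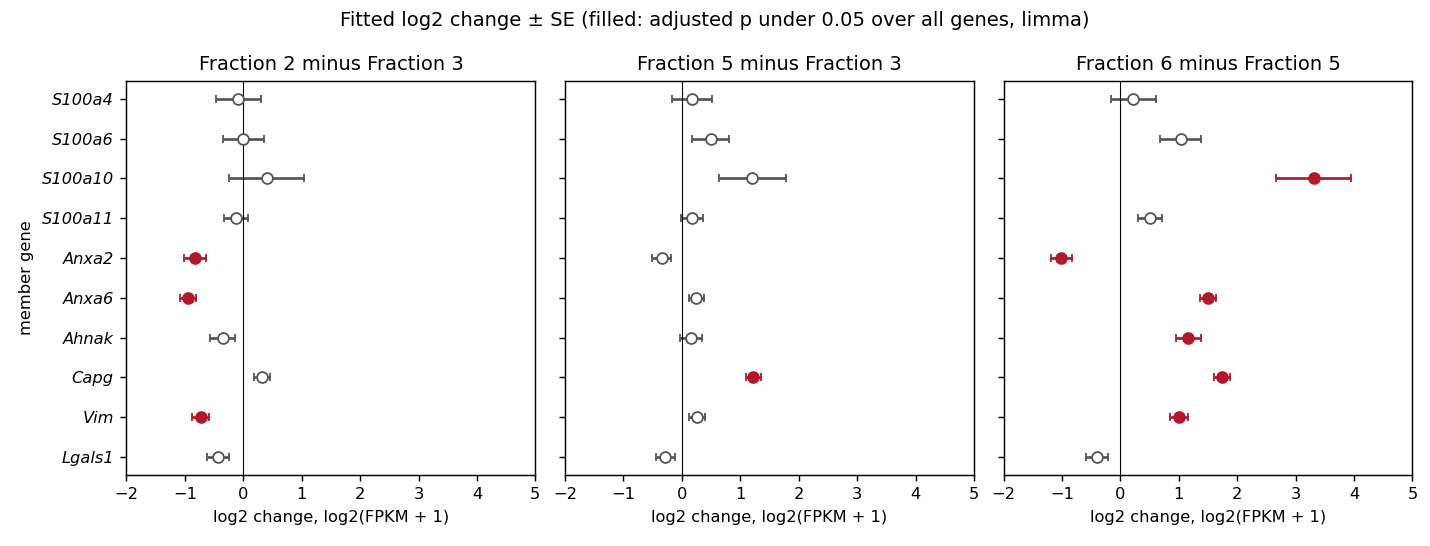
Log2 changes of the 10 members on the log2(FPKM + 1) scale in 3 comparisons without Fraction 7, as points with bars of 1 standard error. Filled points have a limma adjusted p under 0.05 over all genes tested: 3 members in the left panel, Capg alone in the middle panel and 6 members in the right panel. S100a4 and S100a6 are shown as values only. The filled point of Ahnak in the right panel is no test.

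Fraction 6 against Fraction 3, the widest tested contrast, gave 6 of 8 members higher, beside 19.1% of all genes, and 2 lower, beside 27.7%. Capg rose 8.07-fold (log2 change 2.96 ± 0.14, limma adjusted p 3.65e-09), Anxa6 3.43-fold (1.74 ± 0.14, 3.53e-07) and Vim 2.43-fold (1.27 ± 0.15, 1.24e-05). S100a10, listed at 0 in all 3 Fraction 3 libraries, passed with a limma adjusted p of 6.7e-05, and no fold is given for it. S100a11 passed with a limma adjusted p of 0.0152. Ahnak is among the 6 counted as higher, with a log2 change of 1.32, but its call is no test. Anxa2 fell by 1.36 on the log2 scale (SE 0.18, limma adjusted p 3.84e-05) and Lgals1 by 0.69 (SE 0.19, limma adjusted p 0.00751). The untested differences were 1.53 for S100a6 and 0.40 for S100a4. Calls that were lost without 1 library were those of S100a11 (limma adjusted p 0.245 without Fraction 6 library 2 and 0.0577 without Fraction 3 library 1) and Lgals1 (0.0939 without Fraction 6 library 1). The median was 1.29 for the 8 members, as it was for all 10, and -0.03 for all genes tested.

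Fraction 7 against Fraction 6 is the contrast on which the members were picked, and its values describe how far each gene was from the pre-memory level. Ahnak was 23.9 times higher by ratio of means, S100a6 23.3 times, S100a4 16.9 times and S100a10 9.68 times. The first 3 ratios divide by low Fraction 6 values and are rough: 1.82 and 2.87 FPKM for Ahnak, 0.734 and 3.81 for S100a6 and 0.426 and 0.391 for S100a4. Capg (2.33 times), S100a11 (2.26 times), Lgals1 (1.62 times), Anxa6 (1.37 times) and Vim (1.22 times) were closer to the Fraction 6 level, and Anxa2 stood at 0.705 of it. The libraries of these gates did not overlap for 8 members, and they overlapped for Anxa2 and Vim. Of all genes tested, 7.37% were higher and 13.9% lower in this comparison, and 17.6% had every Fraction 7 library above both Fraction 6 libraries. The members' median log2 difference was 1.21, beside -0.05 over all genes. Against Fraction 5 the corresponding medians were 2.25 and -0.05, and against LZ they were 2.38 and -0.10.

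The members differed in how much of the distance from Fraction 3 to Fraction 7 was covered in Fraction 6. On the log2(FPKM + 1) scale, the Fraction 6 mean had covered 81.6% of that difference for Vim, 79.2% for Anxa6, 70.8% for Capg and, downward, 72.2% for Anxa2. For S100a10 the share was 57.5%, for S100a11 36.1%, for S100a6 26.9%, for Ahnak 24.5% and for S100a4 14.7%. Fraction 6 sets some of these shares by 1 library: that of S100a6 was 14% without library 2 and 39.8% without library 1, and that of S100a11 18.7% and 53.5%. In Fraction 5 the largest share was that of Capg, 29.3%, and those of the others lay between 2.95% for Ahnak and 18.3% for Anxa2. Lgals1 has no such share because its Fraction 3 and Fraction 7 means differ by only -0.04. The added 1 compresses low values, which bears on the shares of S100a4, S100a6, S100a10 and Ahnak.

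**Figure D3:**
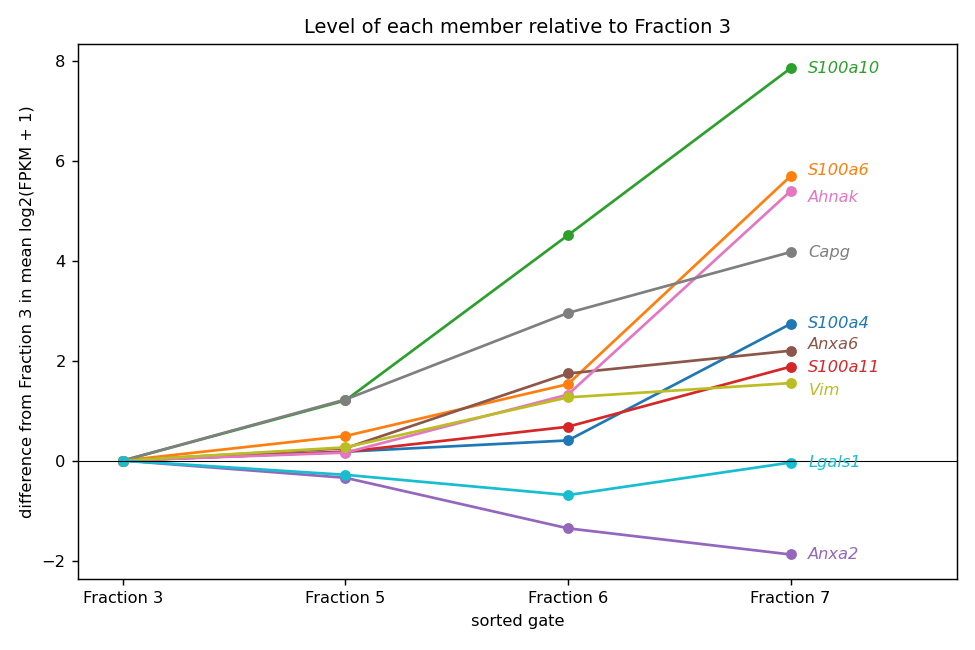
Mean log2(FPKM + 1) of each member in Fractions 3, 5, 6 and 7 minus its Fraction 3 mean. Lines that join the gates are a guide for the eye: Vim, Anxa6 and Anxa2 have their longest segment before Fraction 6, S100a6, Ahnak and S100a4 after it, and Lgals1 returns to near 0.

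S100a10 and Anxa2, whose proteins form a complex, moved in opposite directions, and the ratio of their transcripts changed with the gate. S100a10 per Anxa2, as a ratio of FPKM, was 0 in all 3 Fraction 3 libraries, 0 and 0.0137 in Fraction 2 and 0.0169, 0.00512 and 0.0340 in Fraction 5. It was 0.0809, 0.0724 and 0.00394 in LZ, 0.387 and 0.816 in Fraction 6 and 7.91, 9.11 and 9.03 in Fraction 7. Only in Fraction 7 did the FPKM of S100a10 exceed that of Anxa2, in 3 of 3 libraries. Library 2 had the lowest S100a10 (171 FPKM) and also the lowest Anxa2 (18.8). No protein was measured.

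**Figure D4:**
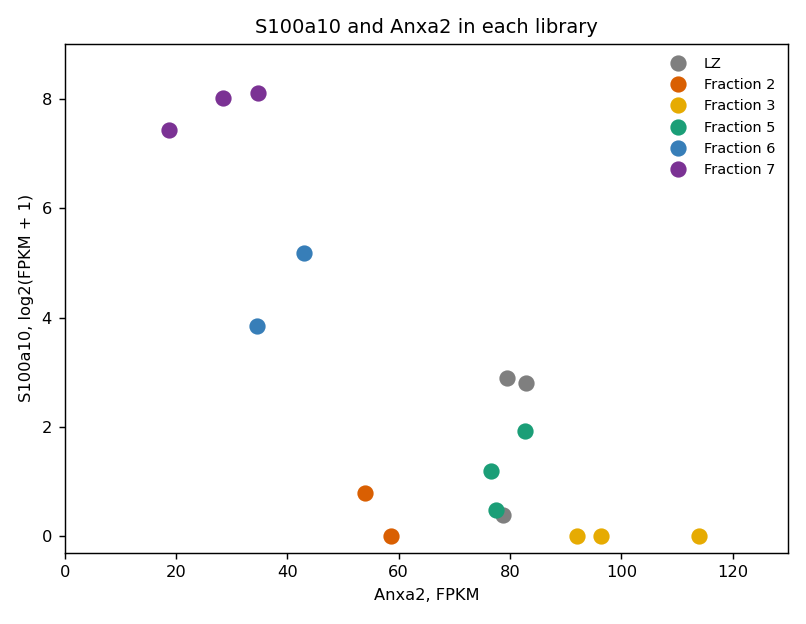
S100a10 on the log2(FPKM + 1) scale against Anxa2 in FPKM, with 1 point for each of the 16 libraries coloured by gate. Fraction 7 lies at the upper left, Fraction 3 at the lower right with S100a10 listed at 0, and Fraction 6 between them.

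The Fraction 7 libraries differed among themselves. Of the 10 members, 9 were highest in library 1 and all 10 were lowest in library 2. Over all genes tested, 56.9% were highest in library 1 and 30.0% lowest in library 2, and FPKM summed to 457520, 416741 and 419401 in libraries 1, 2 and 3. Plasma cell transcripts differed too: Igj, the joining chain of secreted antibody, stood at 46.9, 296 and 292 FPKM in libraries 1, 2 and 3, and Xbp1, a secretory factor, at 34.0, 84.9 and 81.3. Sdc1, which encodes the CD138 that the sort excluded, stood at 0.502, 4.44 and 4.51 FPKM. Prdm1 (1.37, 2.00 and 1.97 FPKM) and Irf4 (19.5, 20.6 and 21.4) were also lowest in library 1, so that 5 of 7 plasma cell genes were. Slamf7 was highest there, at 18.4, 15.6 and 16.7 FPKM, and Tnfrsf17 was lowest in library 2, at 3.02, 2.44 and 4.73. Summed over the 7 plasma cell genes, Fraction 7 ranged from 124 to 426 FPKM, beside 83.4 to 98.0 in Fraction 6 and 225 to 247 in Fraction 3. The part of this difference in the members' spread was not tested. With library 1 as the only Fraction 7 library, the log2 difference from Fraction 6 was 4.64 for S100a6, 4.50 for Ahnak and 3.60 for S100a10, beside 4.16, 4.07 and 3.34 with all 3. Macrophage list genes summed to between 61.3 and 125 FPKM in Fraction 7 and at most 30.2 elsewhere, through Ly6c1 (34.9 to 38.3 FPKM) and Ly6c2 (16.1 to 67.9), which lymphocytes also express. Emr1 of that list stood at 1.23, 2.46 and 1.17 FPKM in Fraction 7 and at most 0.254 in LZ and Fractions 2, 3 and 5. Cd68, at 6.51 to 13.5 FPKM in Fraction 7, stayed within the range of the other gates. The part of these genes in the members' levels was not tested.

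**Figure D5:**
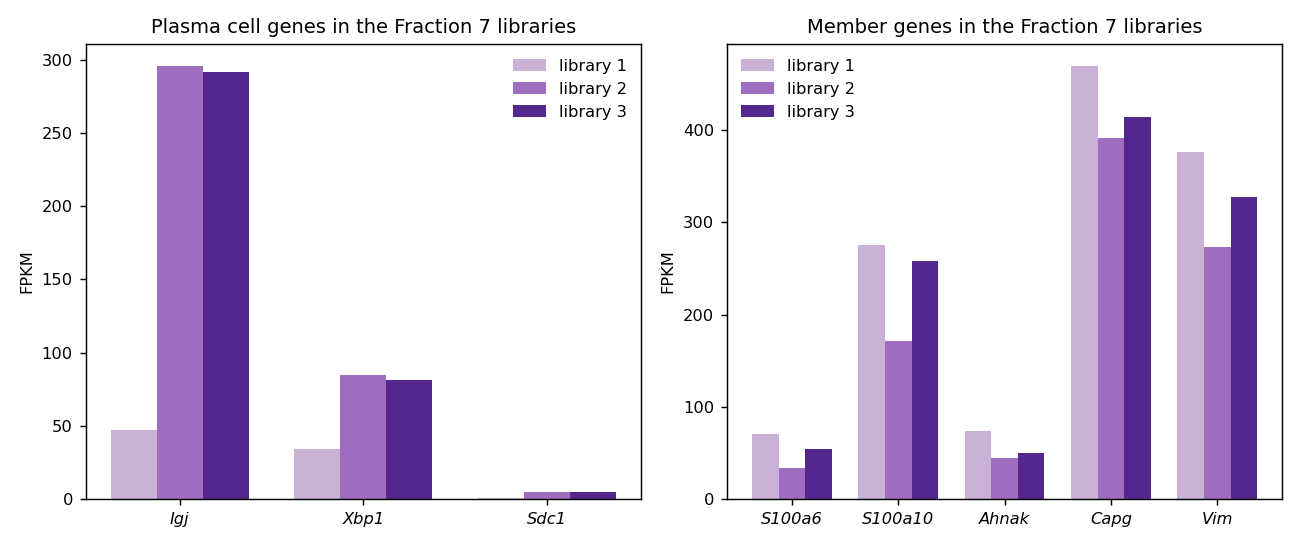
FPKM of 3 plasma cell genes (left) and 5 members (right) in the Fraction 7 libraries, with bars from 0. Igj, Xbp1 and Sdc1 are lowest in library 1, where the 5 members are highest.

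Of the other S100 genes, listed with the calcyclin partner Cacybp, 6 were tested with limma. Between Fraction 6 and Fraction 5, 0 passed (1 at an unadjusted p under 0.05), and between Fraction 7 and Fraction 6, 0 passed (0 unadjusted). S100a1 and Cacybp passed as higher in Fraction 2 than in Fraction 3, beside 9.17% of all genes, but S100a1 missed the threshold without Fraction 2 library 1 (limma adjusted p 0.0621) and Cacybp under 8 of 14 alternatives. Of 6 other annexins tested with limma, 0 passed between Fraction 6 and Fraction 5, adjusted or unadjusted. Anxa4 and Anxa5 were higher in Fraction 5 than in Fraction 3, beside 9.99% of all genes, and Anxa5 and Anxa7 in Fraction 7 than in Fraction 6, beside 7.37%. The call of Anxa7 was lost under 9 of 15 alternatives, with a limma adjusted p of 0.433 without Fraction 6 library 1. Anxa5, which binds phosphatidylserine, rose from 3.14 ± 0.55 FPKM in Fraction 3 to 6.84 ± 1.84 in Fraction 5 (n = 3 each, limma adjusted p 0.0016). It rose again, from 7.58 ± 0.92 (n = 2) in Fraction 6 to 15.7 ± 1.91 (n = 3) in Fraction 7, a log2 change of 0.96 ± 0.19 (limma adjusted p 0.00288). Anxa11 fell in Fraction 2 against Fraction 3, as Anxa2 and Anxa6 did, from 57.7 ± 4.56 to 36.9 ± 1.72 FPKM (limma adjusted p 0.00311). Of 11 membrane repair and calcium partner genes, 0 passed limma's test between Fraction 6 and Fraction 5, adjusted or unadjusted, and Myof, a ferlin of membrane repair, alone rose from Fraction 6 to Fraction 7 (log2 change 1.24 ± 0.16, limma adjusted p 6.65e-05).

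Capg is related to gelsolin and other actin regulators. Between Fraction 6 and Fraction 5, 6 of 18 tested genes of the gelsolin and actin capping list fell and 0 rose in limma's test (8 and 1 at an unadjusted p under 0.05), beside 10.4% and 7.07% of all genes. Each of these 6 calls (Gsn, Actg1, Capzb, Cfl1, Lcp1 and Pfn1) was lost without Fraction 6 library 1, that of Gsn with a limma adjusted p of 0.0741. Those of Cfl1 and Pfn1 were also lost without Fraction 5 library 3 (0.0548 and 0.0912), and that of Pfn1 without Fraction 6 library 2 (0.0946). Gsn (gelsolin), which severs actin filaments, went from 139 ± 11.7 (n = 3) to 97.1 ± 5.01 FPKM (n = 2, limma adjusted p 0.00664) and then to 42.5 ± 2.30 (n = 3) in Fraction 7. Actg1, a cytoplasmic actin, went from 1580 ± 94.0 to 1210 ± 99.5 and 909 ± 41.2 FPKM over the same gates. From Fraction 6 to Fraction 7, 6 of the 18 fell and 2 rose, beside 13.9% and 7.37% of all genes. Those that rose were Tagln2 (transgelin-2, 37.9 ± 0.88 to 151 ± 33.1 FPKM) and Svil (supervillin). Svil did not exceed 0.425 FPKM outside Fraction 7, where its mean was 3.77. It passed the filter only through the gate where it is high, so its call is no test. Without Fraction 6 library 2, the calls of Actg1, Pfn1 and Cotl1 in that comparison were lost (limma adjusted p 0.053, 0.072 and 0.146), and that of Cotl1 was lost under 7 of 15 alternatives.

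Among filament genes related to Vim, 4 were tested. Lmnb1, a B-type lamin of the nuclear envelope, fell from 93.1 ± 16.8 (n = 3) to 38.2 ± 5.04 FPKM (n = 2) between Fractions 5 and 6, as did Lmnb2, whose call was lost under 5 of 14 alternatives (limma adjusted p 0.116 without Fraction 6 library 2), while Plec, the filament linker plectin, rose from 14.8 ± 0.92 to 24.2 ± 0.23 FPKM (limma adjusted p 0.00208). Lmna, the A-type lamin, stood at 0.209 ± 0.11 FPKM in Fraction 6 and 6.84 ± 3.55 (n = 3) in Fraction 7, given as values with no test.

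Linkers from membrane to cortex, the functional neighbours of Ahnak, gave 6 of 14 higher and 0 lower between Fractions 5 and 6 (6 and 0 at an unadjusted p under 0.05), beside 7.07% and 10.4% of all genes. Between Fractions 6 and 7, 5 were higher and 0 lower (5 and 1 unadjusted), beside 7.37% and 13.9%; of these 5, Zyx missed the threshold without either Fraction 6 library (limma adjusted p 0.0928 and 0.0538). Emp3, a membrane protein, went from 12.4 ± 1.33 (n = 3) to 32.0 ± 8.03 (n = 2) and 73.2 ± 9.71 FPKM (n = 3) over these gates, with limma adjusted p of 0.000112 and 0.00019. Flna (filamin A) went from 88.3 ± 2.84 to 127 ± 8.87 FPKM between Fractions 5 and 6 (limma adjusted p 0.000711). The other 4 calls between Fractions 5 and 6 were less firm. That of Rdx was lost without Fraction 6 library 1 (limma adjusted p 0.068), and those of Cd44, Vcl and Zyx under 3 of 14, 7 of 13 and 6 of 14 alternatives, with their highest limma adjusted p (0.238, 0.175 and 0.193) without Fraction 6 library 2. Crip1, the most abundant of the list, had group means between 387 and 689 FPKM. Of 7 tested galectins and ligands, 3 rose and 0 fell between Fractions 5 and 6 (3 and 0 unadjusted), beside 7.07% and 10.4% of all genes. The call of Lgals9 was lost under 9 of 14 alternatives, each single library left out among them (limma adjusted p up to 0.257). Lgals3 went from 1.11 ± 0.54 to 7.47 ± 1.27 FPKM (limma adjusted p 6.76e-05), and Lgals8 from 18.2 ± 1.75 to 28.8 ± 0.32 (0.000865).

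The genes outside the group with profiles most like S100a6, S100a10 and Ahnak are given as a description. Likeness was the root mean square difference between centred log2(FPKM + 1) profiles over 16 libraries, searched over the 8725 genes with a group mean of at least 5 FPKM. For Ahnak the nearest gene outside the group was Sspn (0.293), then Ckap4 (0.502), Tmem154 (0.505), Ccr7 and Bhlhe41 (0.543 each). The same 5 were nearest to S100a6, led by Sspn (0.319). S100a6 and Ahnak were nearer to each other (0.279) than to any of these. Among the 5 nearest to S100a10 were Pml (0.676), Bhlhe41 (0.781), Plac8 (0.823) and S1pr1 (1.05), the receptor for sphingosine 1-phosphate. Pml stood at group means of 16.7 FPKM in Fraction 6 and 110 in Fraction 7, beside 0.307 in Fraction 3.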

How the data were processed

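Per the labels' protocols, total RNA was extracted with TRIzol from 10000 to 20000 sorted cells per library and prepared with a NEBNext Ultra RNA kit. Per the submitters' processing notes, the tools were TopHat2 2.0.8 and Cufflinks 2.1.1 on mm9, and the deposited table holds the authors' FPKM values for 23234 named genes; 1 row without a name was left out. FPKM carry no read counts, so count tests were not used, and the number of reads behind a value is unknown.

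Here limma 3.58.1 in R 4.3.3 fitted log2(FPKM + 1) over 16 libraries with 6 group means and a variance trend, for the 11266 genes that reached 1 FPKM in 2 or more libraries. Benjamini-Hochberg adjustment ran over all these genes for each comparison in turn (threshold 0.05), and the fit was tested on simulated data. A fold or ratio is of mean FPKM, while log2 changes come from log2(FPKM + 1), which understates them for low genes. The members, the related lists and the comparisons were chosen with earlier results of these data known. Related genes were named where they passed with a group mean of at least 5 FPKM (up to 4 per list and comparison by adjusted p, plus the most abundant one); Myof, Svil, Mpo, Elane, S100a1, S100a5, S100a13, Emr1, Prdm1, Slamf7, Irf4, Tnfrsf17 and genes named only for a lost call were chosen after their values were seen. Of the 5 genes nearest to S100a10 in profile, 1 is not reported here.

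Replicate numbers did not pair the libraries, as the closing section gives. Alternatives were no filter, a filter of 5 FPKM, a pseudocount of 0.1, quantile or median-ratio scaling, array weights, only the groups compared, the replicate block and each library left out. Leaving out the 4 libraries with Ngp, and keeping only Fraction 7 library 1, were added after seeing the data. Symbols, gene order and upstream windows come from RefSeq on GRCm38.p6, another build than mm9; all 10 members matched, no coordinates were carried between builds, and windows of 250 bases were used. Python 3.11.15, pandas 2.3.3, numpy 2.4.6 and matplotlib 3.10.9 made the summaries and figures.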

Additional observations from a re-analysis of the deposited data

How the results depend on the processing

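Of 555 settings of the 10 single members in the comparisons without Fraction 7, 534 kept both direction and side of the threshold, 9 lost a call, 10 gained one and 2 changed sign. These settings include those of S100a4 and S100a6, whose calls are no test because both genes passed the filter only through the Fraction 7 libraries. The sign changes were of values near 0: S100a11 between Fractions 2 and 3 ranged from -0.236 to 0.0306 with a library left out, above 0 without Fraction 3 replicate 2, and S100a4 between Fractions 5 and 3 from -0.0906 to 0.313, below 0 without Fraction 5 replicate 3. Lgals1 between Fraction 7 and LZ, -0.08 as reported, was 0.18 after quantile normalization and 0.0283 after median-ratio scaling, and ranged from -0.238 to 0.0214 with a library left out, above 0 without LZ replicate 3 (0.0176) or Fraction 7 replicate 2. The cause was not tested.

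Genes called between Fractions 2 and 3 numbered 1760, and between 668 and 1417 with a library left out, the lowest without Fraction 2 library 2 (704 without library 1, 951 without Fraction 3 library 3). Without the libraries with Ngp they were 1086, with 1 member called in place of 3. Members called between Fractions 5 and 3, 1 as reported, were 3 after quantile normalization, 3 with a pseudocount of 0.1 (S100a6, whose call is no test, among them) and 3 with only the groups compared. Genes called between Fractions 6 and 5 were 1968, and between 1139 (without Fraction 6 library 1) and 1821 with a library left out, with 1164 without Fraction 6 library 2. Those between Fractions 7 and 6 were 2393, 1496 with only the groups compared, 1477 with Fraction 7 library 1 alone, and between 1330 (without Fraction 6 library 2) and 2475 with a library left out, with 1556 without Fraction 6 library 1. The members' median log2 difference from Fraction 5 to Fraction 7, 2.25, was 1.95 with the 5 FPKM filter, which drops S100a4, and between 1.99 and 2.45 with a library left out. From LZ to Fraction 7 it was 2.38, 2.92 with a pseudocount of 0.1, and between 2.11 and 2.56 with a library left out.

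Quantile normalization moved the median of all genes by 0.116 between Fraction 7 and LZ. It moved the share of higher genes among those called from 58.7% to 45.4% between Fractions 2 and 3, from 33.9% to 50.2% between Fractions 5 and 3, from 34.7% to 45% between Fractions 7 and 6 and from 38.8% to 50% between Fraction 7 and LZ. Replicate numbers did not pair the libraries: deviations of same-numbered libraries had correlations from -0.184 to 0.155, and of other pairs from -0.155 to 0.183. With the replicate block, 1618, 3518, 2076 and 5338 genes were called between Fractions 2 and 3, 5 and 3, 6 and 5, and 6 and 3. Of all 10 members, 3, 1, 6 and 9 were called with the block, the same counts as without it (S100a6 among the 9 and Ahnak among the 6 and the 9, whose calls are no test). The calls of Lgals9 between Fractions 6 and 5 and of Anxa7 between Fractions 7 and 6 were lost with it (limma adjusted p 0.0569 and 0.0626). Between Fraction 7 and Fractions 6 and 5 and LZ the block gave 2471, 5498 and 7081 genes. Where leaving out a library leaves 1 in a group, that library was assumed to vary as the other groups do. Depth may limit S100a4 outside Fraction 7, S100a6 outside Fraction 7 and Fraction 6 library 2, and S100a10 in Fractions 2 and 3, LZ library 3 and Fraction 5 library 2, where values equal at most 6 of the steps fitted to the gene.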
